A study of Homo sapiens with 3 samples.

Results

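The loci of 10 genes of hepatic gluconeogenesis and insulin signalling (PCK1, G6PC, FBP1, PPARGC1A, FOXO1, CRTC2, INSR, IRS1, IRS2 and IGFBP1) were examined for HDAC1 binding. Each locus was a window on the hg19 genome that takes in the gene and about 10 kb on either side, and its members were all HDAC1 peak summits inside it. The windows cover 771 kb in all and held 6 of the 9476 summits of the control library and 15 of the 11553 summits of the H89 library. The data are CUT&Tag libraries from HepG2, a human hepatocellular carcinoma line, in which an antibody guides a transposase to the chromatin where its target sits. Every library carries the genotype label WT. The control library is labelled without H89 and the treated one with H89, an inhibitor of the cAMP-dependent kinase PKA that is known to act on other kinases too. HDAC1, a deacetylase that works on histones within corepressor complexes, is the target according to the title of the series, and an IgG library of cells without H89 was not analysed here. The labels state neither the dose of H89 nor how long it was applied. The comparison asks how HDAC1 binding differs with H89. Each condition has 1 library, so there is no test of H89 and no replicate check, and read depth is unknown.

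In the fasted liver, glucagon raises cAMP and activates PKA, which leads to phosphorylation of the transcription factor CREB and lets its coactivator CRTC2 enter the nucleus. CREB and CRTC2 switch on PCK1, G6PC and PPARGC1A. Insulin acts in the opposite sense through its receptor INSR, the adaptors IRS1 and IRS2 and the kinase AKT, which keeps FOXO1 out of the nucleus. FOXO1 otherwise activates G6PC, PCK1 and IGFBP1.

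HDAC1 summits lay at 6 of the 10 loci and were missing from the window of the other 4 in both libraries. The H89 library had more summits than the control at FOXO1 (5 against 1), CRTC2 (5 against 2), IGFBP1 (2 against 1) and INSR (1 against 0). FBP1 and IRS1 had 1 summit in each library. PCK1, G6PC, PPARGC1A and IRS2 had none in either library. A control summit was thus present at 5 of 10 loci and an H89 summit at 6 of 10. When the primary chromosomes were laid out end to end in tiles of the mean window length, 77.1 kb, 14.9% held a control summit and 17.0% an H89 summit. Tiles take in gene-poor DNA, whereas every window holds a gene, so the tiles are a level for the whole genome and not one for genes.

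**Figure D1:**
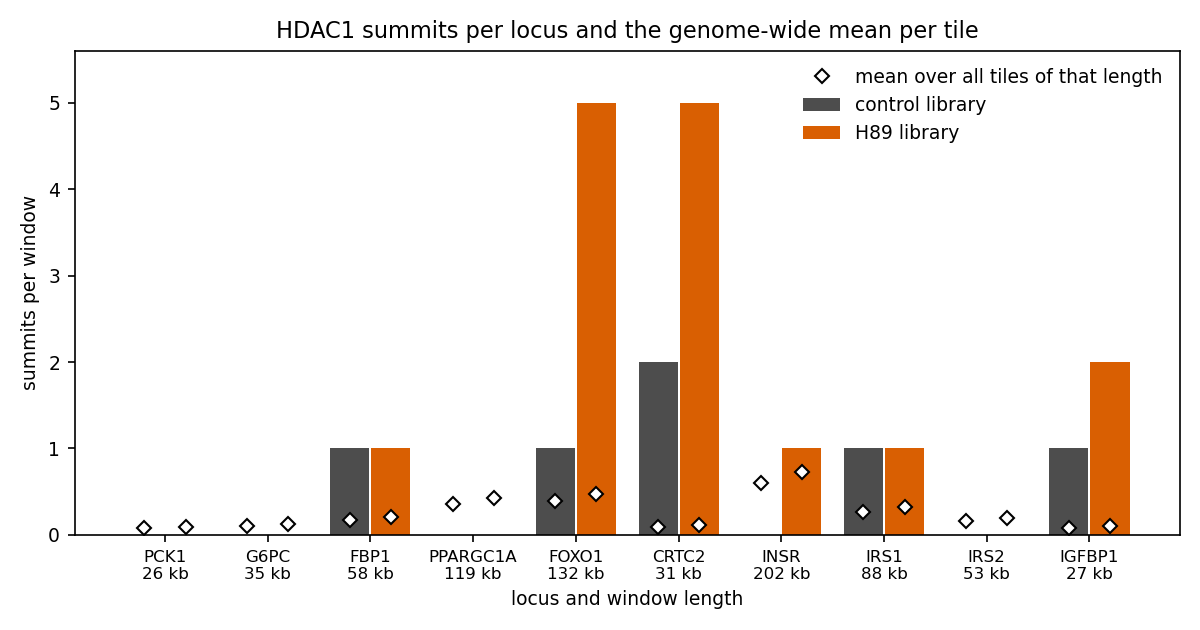
Number of HDAC1 summits in each locus window (vertical axis) for the control library (grey bars) and the H89 library (orange bars), with the window length under each gene. White diamonds give the mean number over all genome tiles of the same length in the same library. FOXO1 and CRTC2 reach 5 summits with H89, and 4 loci have none in either library.

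Over the 10 windows the H89 library held 2.50 times as many summits as the control, with an exact (Clopper-Pearson) 95% binomial interval from 0.917 to 7.86 that covers counting error only. The same ratio over all summits was 1.22 (1.19 to 1.25), which lies inside that interval. The windows held 7.78 control and 19.5 H89 summits per Mb, against 2.98 and 3.62 per Mb over the primary chromosomes. FOXO1 and CRTC2 supplied 10 of the 15 H89 summits. Without these 2 windows, 3 control and 5 H89 summits remained, a ratio of 1.67 (0.324 to 10.7).

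Sequences before the gene starts are shown first, because most summits of FOXO1, INSR and IRS1 lay near the start of the gene, whereas G6PC had no summit. RefSeq promoters (GRCh38.p14) were matched for 7 of the 10 genes: G6PC, listed there as G6PC1, FBP1, PPARGC1A, FOXO1, INSR, IRS1 and IRS2. PCK1, CRTC2 and IGFBP1 had no match. The 250 bases before the start are printed 5′ to 3′ on the strand of the gene, and capitals mark the GC box (GGGCGG, or CCGCCC on the other strand) and the TATA box (TATAAA, or TTTATA).
FOXO1: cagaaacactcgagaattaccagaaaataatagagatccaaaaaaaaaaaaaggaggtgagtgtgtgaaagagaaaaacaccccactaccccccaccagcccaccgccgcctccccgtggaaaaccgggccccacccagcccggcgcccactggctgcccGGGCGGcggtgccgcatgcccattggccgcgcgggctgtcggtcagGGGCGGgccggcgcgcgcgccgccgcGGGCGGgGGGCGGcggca
INSR: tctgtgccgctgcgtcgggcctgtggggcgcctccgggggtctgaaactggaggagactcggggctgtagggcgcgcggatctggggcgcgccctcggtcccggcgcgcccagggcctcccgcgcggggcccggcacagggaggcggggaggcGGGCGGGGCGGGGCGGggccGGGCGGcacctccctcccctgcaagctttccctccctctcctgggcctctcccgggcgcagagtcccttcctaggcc
IRS1: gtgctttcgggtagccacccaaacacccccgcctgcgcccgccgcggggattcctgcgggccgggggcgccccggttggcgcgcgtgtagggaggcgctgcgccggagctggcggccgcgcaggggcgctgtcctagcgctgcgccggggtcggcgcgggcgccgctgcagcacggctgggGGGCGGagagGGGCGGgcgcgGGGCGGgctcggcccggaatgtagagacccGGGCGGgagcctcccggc
G6PC: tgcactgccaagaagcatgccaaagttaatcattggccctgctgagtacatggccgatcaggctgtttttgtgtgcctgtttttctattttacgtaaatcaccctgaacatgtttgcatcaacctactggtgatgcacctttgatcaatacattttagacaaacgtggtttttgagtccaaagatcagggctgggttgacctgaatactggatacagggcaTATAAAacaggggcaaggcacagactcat

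The promoters of FOXO1, INSR and IRS1 are rich in G and C and hold 4 GC boxes each, some of which overlap in INSR, and no TATA box. G6PC has 1 TATA box and no GC box. Of all 35116 promoters in the table, 42.6% hold a GC box and 10.7% a TATA box within the same 250 bases. The share of G and C was 67.2% in FOXO1, 78.4% in INSR and 80.8% in IRS1, against 44.0% in G6PC and a median of 58.0% over all promoters. FOXO1 holds 27 CpG dinucleotides, INSR 28 and IRS1 39, whereas G6PC holds 3 and the median promoter 11. A base composition of this kind did not go along with a summit throughout. IRS2 holds 42 CpG and 5 GC boxes and FBP1 holds 26 CpG and 3 GC boxes, and neither had a summit within 3 kb of its start in either library.

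PPARGC1A has 2 promoter entries whose starts lie farther apart than its window is long, one with 4 CpG and the other with 33. Exact letter strings of some motifs, among them sites of the pathway's own factors, were searched for on both strands in the same 250 bases. The full cAMP response element TGACGTCA, which CREB binds, was in none of the 8 matched promoter entries and is in 1.65% of all promoters. Its shorter core TGACG (or CGTCA) was in 1 entry, the CpG-rich one of PPARGC1A, and is in 21.2% of all promoters. The forkhead motif TGTTTAC (or GTAAACA), a form of the FOXO1 site, was in no entry and is in 2.98% of all promoters. CAAAACA (or TGTTTTG), a core of the insulin response element, was in IRS2 alone and is in 4.30% of all promoters. CCAAT (or ATTGG) was in G6PC and FOXO1 once each and in IRS2 at 2 places, and is in 32.0% of all promoters. These are matches of letters in a short stretch, not sites of binding. Variant forms of a site were not searched for, so a promoter without a match may still hold such sites.

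**Figure D2:**
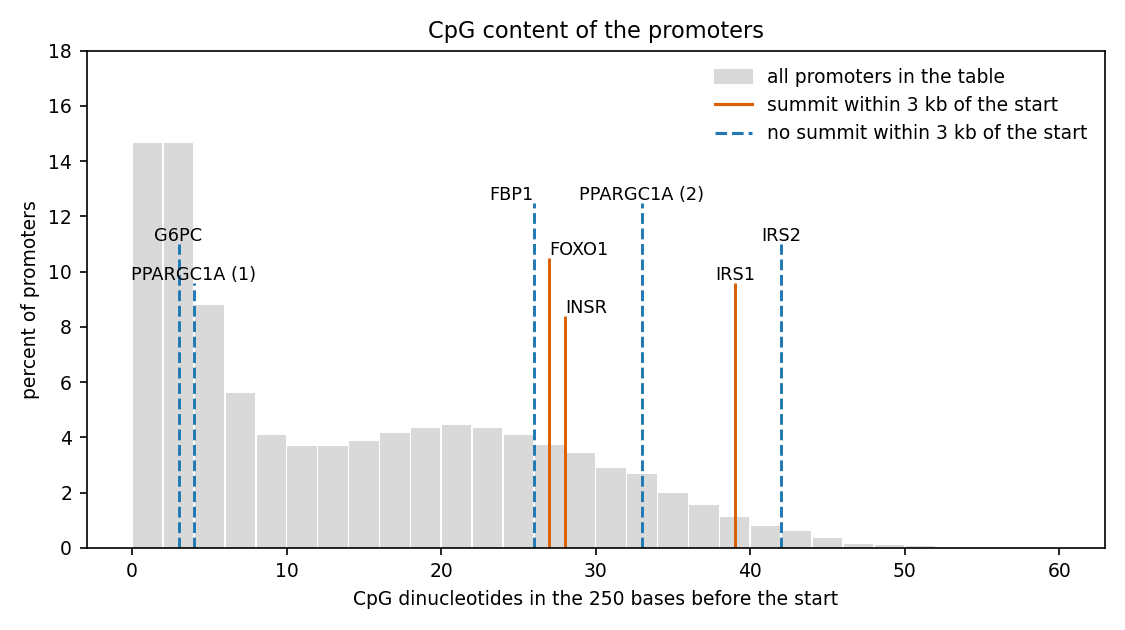
Number of CpG dinucleotides in the 250 bases before the start (horizontal axis) of the 8 matched promoter entries, drawn as vertical lines over the distribution of all promoters in the table (grey bars, percent). Orange lines mark genes with a summit of either library within 3 kb of the start and dashed blue lines the others; line heights only keep the names apart. FOXO1, INSR and IRS1 lie at 27 to 39 CpG, and IRS2 and FBP1, with no summit near the start, lie at 42 and 26.

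Summits are described by position and score. The score of a summit is read as the −log10 of a p-value, so 5 stands for a smaller probability than 3, and it depends on the local background as well as on the signal. Gene starts were taken as the window edge less 10 kb, so distances from a start are good to about 1 kb. At this precision, 4 of the 6 control summits and 8 of the 15 H89 summits lay within 3 kb of a start, at 4 genes in the control (FOXO1, CRTC2, IRS1 and IGFBP1) and at these and INSR with H89. The limit of 3 kb was chosen after the positions were seen. The share of all summits that lie this near a start is unknown, because no hg19 gene table was at hand. Whether these counts are particular to the 10 loci was therefore not tested.

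**Figure D3:**
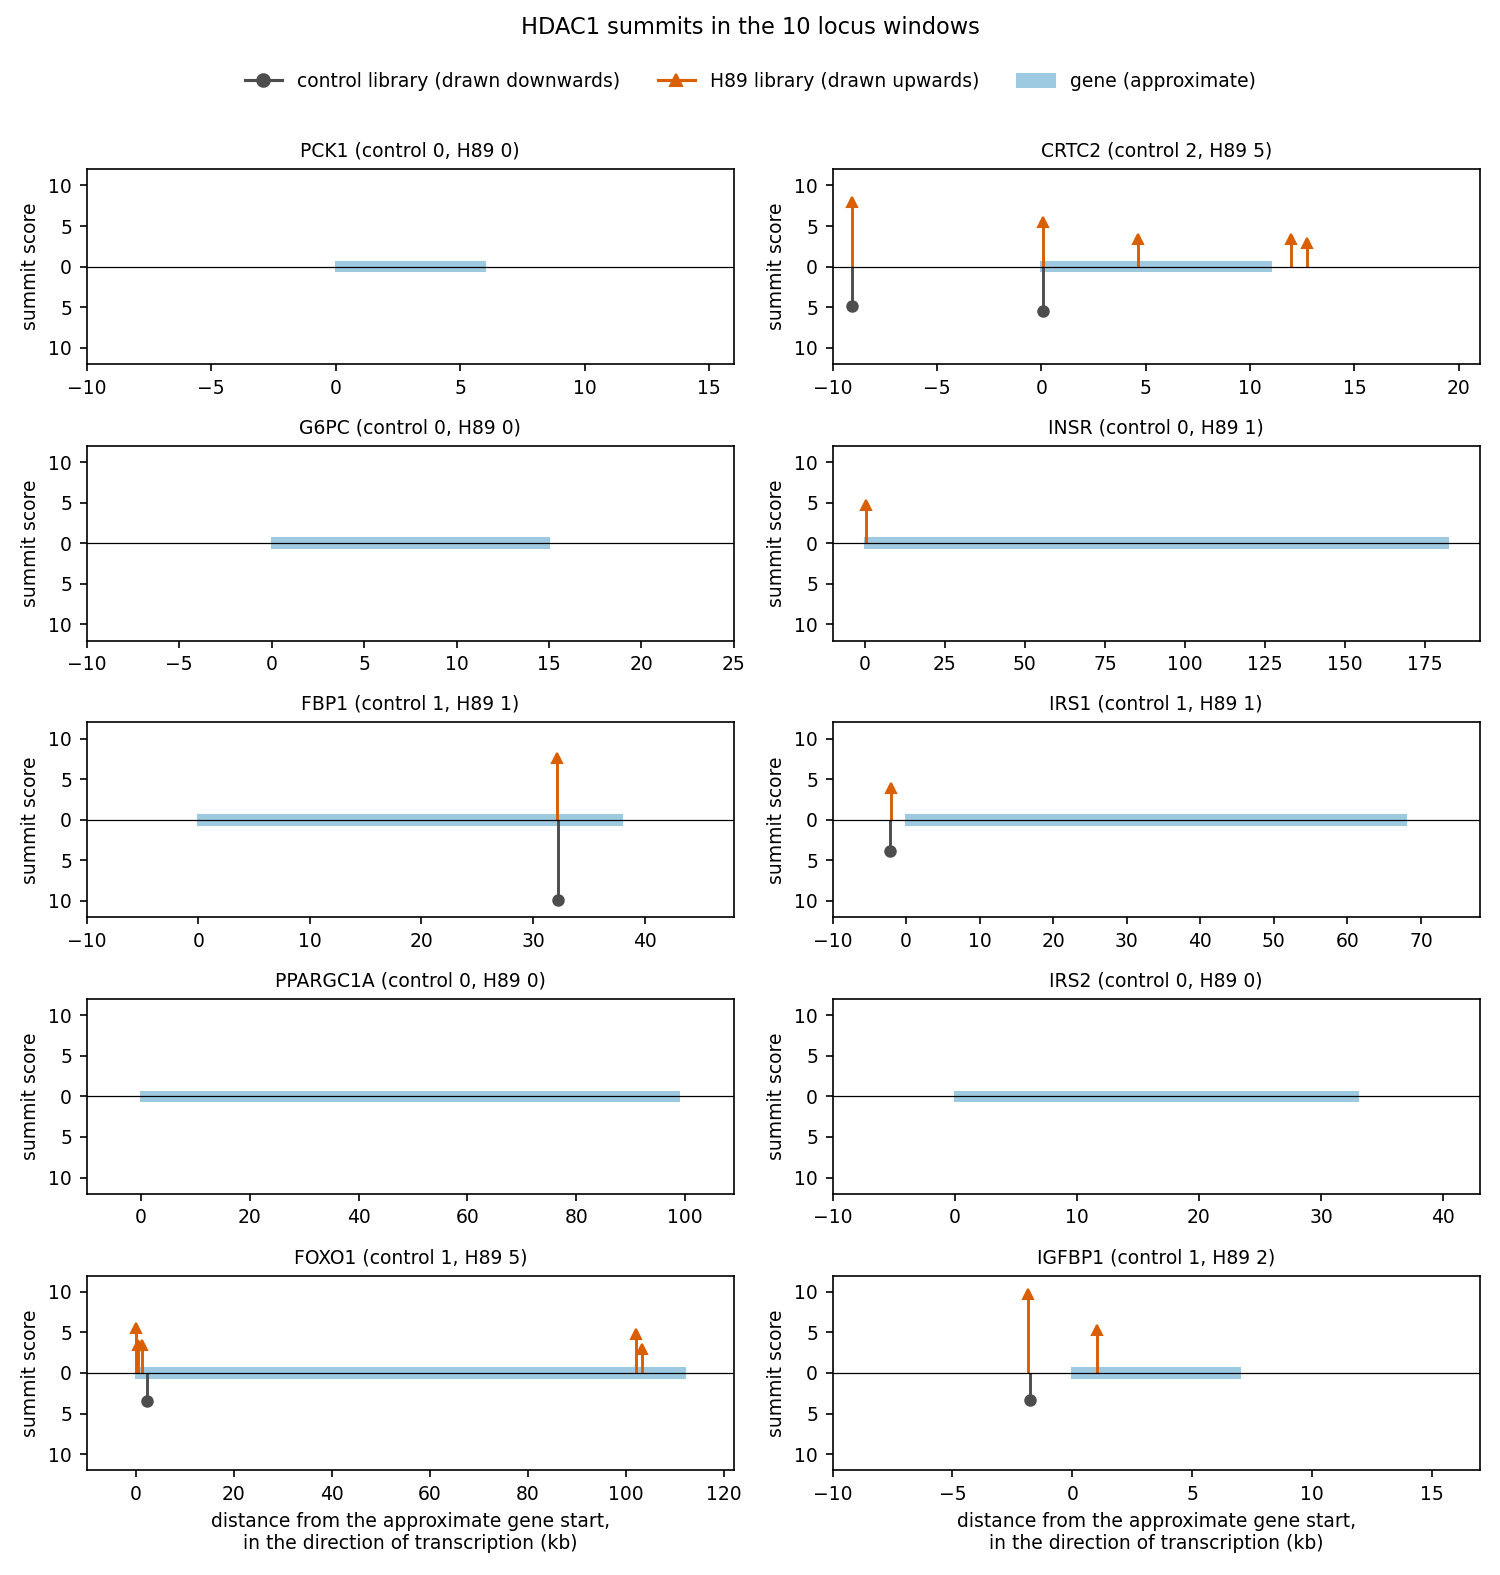
Position of each HDAC1 summit as distance from the approximate gene start in the direction of transcription (horizontal axis, kb; the scale differs between panels) and its score (vertical axis). H89 summits are drawn upwards in orange, control summits downwards in grey, and the blue bar is the gene. Summits of INSR, IRS1 and IGFBP1 lie near the start, those of FOXO1 near the start and, for 2 of 5 with H89, 102 and 103 kb into the gene, and those of FBP1 32 kb into the gene.

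Among the enzymes, only FBP1 had a summit in its window. FBP1, fructose bisphosphatase, removes a phosphate from fructose bisphosphate late in gluconeogenesis, and its window spans chromosome 9 from 97355 to 97413 kb in band 9q22.32. In untreated cells the summit stood at position 97370800 and scored 9.94. With H89 it stood 11 bp away, at 97370811, and scored 7.66. Both lay about 32 kb into the gene and 6 kb before its end, far from the start. FBP2 lies within 10 kb of FBP1 in RefSeq, and which gene these summits belong to was not determined. The control score was the highest of the 6 control summits in the 10 windows, and 9.58% of all control summits scored as high or higher.

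FBP1 was the only one of the 5 pairs in these windows that scored lower with H89 by more than 0.1. The difference was -2.28. A pair here is a control and an H89 summit that are each other's nearest and lie within 1000 bp. Of all 8189 pairs, 14.5% scored lower with H89 by more than 0.1, and 2.61% had a difference as low as that of FBP1 or lower. Many scores of both lists fall on the steps of a Poisson tail probability at a fixed background mean, and the FBP1 scores fell on the step of 5 or more counts in the control and of 4 or more with H89, at means of 0.0269 and 0.0271. Read in that way, the pair differs by a single count. The exact 95% Poisson intervals of 5 counts (1.62 to 11.7) and of 4 counts (1.09 to 10.2) overlap.

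PCK1 and G6PC, which encode enzymes of gluconeogenesis, had no HDAC1 summit. PCK1, phosphoenolpyruvate carboxykinase, has a window on chromosome 20 from 56126 to 56152 kb in 20q13.31. The nearest control summit lay 115 kb before the window, at 56011024 with a score of 12.3. The H89 library had a partner of it at 56010944 with a score of 14.7, and a summit at 56167543, 15.5 kb past the window, whose score of 2.03 is near the lowest in the list. Of genome tiles as long as this window, 93.7% held no control and 92.6% no H89 summit, so an empty window of 26 kb is the common case.

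G6PC, the catalytic subunit of glucose-6-phosphatase that releases free glucose, lies in a window on chromosome 17 from 41042 to 41077 kb in 17q21.31. A summit of each library stood just outside it, at 41038809 in the control (score 8.72, 3.19 kb before the window) and at 41038848 with H89 (score 10.8, 3.15 kb before it). This is about 13.2 kb before the gene start, and which gene it belongs to was not determined. The band as a whole was rich in summits, with 13.5 per Mb in the control and 16.5 with H89. Of tiles as long as this window, 92.0% had no control summit and 90.6% no H89 summit.

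CRTC2 was the most densely occupied of the regulator loci. CRTC2 is the cAMP-responsive coactivator of CREB, and its window covers chromosome 1 from 153910 to 153941 kb in 1q21.3. The control library had 2 summits in these 31 kb and the H89 library 5. Among all 99849 tiles of this length, 1.44% held 2 or more control summits and 0.0571% held 5 or more H89 summits. This locus was ranked after its counts were seen, and the counts include summits in the flanks of the gene. The band around it held 47 control and 62 H89 summits in 4.70 Mb, which is also above the level of the genome.

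At the start of CRTC2 both libraries had their summit on the same base, 153930912. It scored 5.50 in the control and 5.49 with H89, both on the step of 3 or more counts, so no difference was seen there. The second pair lay about 9 kb upstream of the start and less than 1 kb inside the window edge, at 153940054 in untreated cells, where it scored 4.82, and at 153940091 with H89, where it scored 7.98. Its score was higher with H89 by 3.16, a difference reached or exceeded by 13.9% of all pairs. Neither of its scores fell on a fitted step, so no counts or intervals were set beside that difference. Both scores recur, at 54 control and 22 H89 summits, so they may lie on steps that were not fitted. The difference may then rest on few counts. The other 3 H89 summits had no control partner and scored low, at 153926358 within the gene (3.44) and at 153919064 (3.44) and 153918255 (2.96) just past its end. All 3 fell on the step of 2 or more counts. In RefSeq, DENND4B, SLC39A1, MIR6737 and CREB3L4 lie within 10 kb of CRTC2, and which gene the summits in the flanks belong to was not determined.

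FOXO1 showed the largest surplus of summits in the H89 library, and they fell at the 2 ends of the gene. FOXO1, the forkhead factor that insulin restrains, has a window on chromosome 13 from 41119 to 41251 kb in 13q14.11. The control library had 1 summit, at 41238659 about 2 kb into the gene, with a score of 3.45. With H89 there were 3 summits at the start, at 41241003 (score 5.49), 41240451 (3.44) and 41239738 (3.44). A further 2 lay about 102 and 103 kb into the gene, at 41138906 (4.76) and 41137778 (2.96), some 10 kb before its end.

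None of the FOXO1 summits formed a pair, since the control summit and the nearest H89 summit were 1079 bp apart, just over the pairing distance. The control summit scored on the step of 2 or more counts and the H89 summits on steps of 2 or 3, so each call rests on little signal if the steps are read as counts. Of genome tiles of 132 kb, 21.5% held 1 or more control summits and 1.69% held 5 or more H89 summits. An excess of 4 or more summits with H89 over the control was seen in 0.124% of those tiles. The locus was singled out after its values were seen. Its band had 9 control and 18 H89 summits, and 1 and 5 of these lay in the window.

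PPARGC1A, which encodes the coactivator PGC-1α that CREB induces on fasting, lay in a long stretch without HDAC1 summits. Its window spans chromosome 4 from 23783 to 23902 kb in 4p15.2. In the control library no summit was called from 17812638 to 24585982, a gap of 6.77 Mb, and with H89 none from 20701843 to 24586037, a gap of 3.88 Mb. Gaps of that length or more hold 12.3% of the bases of the primary chromosomes in the control and 22.4% with H89. Of tiles as long as this window, 80.0% had no control and 77.4% no H89 summit. The band held 0.781 control and 1.25 H89 summits per Mb, less than the genome as a whole.

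Of the insulin signalling genes, INSR had a summit with H89 alone. INSR encodes the insulin receptor, and its window on chromosome 19 from 7102 to 7304 kb in 19p13.2 is the longest of the 10. The H89 summit at 7293450, about 1 kb into the gene, scored 4.76. That score is the step of 3 or more counts at the second background mean of the list, 0.0477. The nearest control summit was 187 kb away. Of tiles as long as this window, 28.0% held a control and 31.1% an H89 summit, and 12.8% had at least 1 more with H89 than in the control. The band held 84 control and 109 H89 summits in 7 Mb, so summits were sparser in the window than around it.

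IRS1 and IRS2, the adaptors that carry the signal from the receptor, differed from each other: IRS1 had 1 summit in each library and IRS2 had none. IRS1 lies on chromosome 2 in a window from 227586 to 227674 kb in 2q36.3. Its control summit at 227666180 scored 3.88 and its H89 summit at 227666030 scored 3.87, both about 2 kb upstream of the start and 150 bp apart. These were isolated, as no other summit lay within 516 kb of the window in either library. RHBDD1 lies within 10 kb of IRS1 in RefSeq, and which gene the 2 summits belong to was not determined. IRS2, on chromosome 13 from 110396 to 110449 kb in 13q34, had none. Its control gap reached from 103452525 to 111214334, 7.76 Mb, and the H89 gap from 110141484 to 111214336, 1.07 Mb. Gaps at least as long hold 9.50% of the bases of the primary chromosomes in the control and 54.9% with H89. Of tiles as long as the IRS2 window, 88.8% had no control and 87.0% no H89 summit, so an empty window is the common case here too. The difference in gap length comes from H89 summits on the left side that the control list does not hold, the nearest at 110141484 with a score of 5.49.

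IGFBP1 showed the largest score difference among the 5 pairs. It encodes a secreted protein that binds insulin-like growth factors, and its gene is a known target of FOXO1 that insulin represses. The window lies on chromosome 7 from 45917 to 45944 kb in 7p12.3. In untreated cells a summit at 45925245 scored 3.37, and 97 bp away, at 45925148, the H89 library had one that scored 9.67. Both lay about 2 kb upstream of the start. CCDC201 lies within 10 kb of IGFBP1 in RefSeq, and which gene the pair belongs to was not determined. The difference of 6.30 was reached or exceeded by 250 of the 8189 pairs, or 3.05%.

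Pairs that started from a similar control score seldom scored as high with H89 as IGFBP1. Of the 1268 pairs with a control score within 0.1 of it, 13 (1.03%) scored 9.67 or more with H89, and the median H89 score of the 1268 was 3.44. Most of the 1268 started from 3.45, a fitted step of 2 or more counts that 1552 control summits share. The IGFBP1 score of 3.37 is off the fitted steps and shared by 176 control summits, so the 2 may differ in background. IGFBP1 was singled out after its values were seen. A second H89 summit at 45928027, about 1 kb past the start, scored 5.28 and was 2782 bp from the control summit. Only 2 background means were fitted per list, and neither score of the IGFBP1 pair fell on their steps, so no counts were assigned to it. Both scores recur, with 176 control summits at 3.37 and 12 H89 summits at 9.67, so they may lie on steps that were not fitted. The difference of this pair may therefore rest on few counts, like that of FBP1. Whether signal or local background differs was not tested. Of tiles of this length, 1.60% held 2 or more H89 summits and 6.46% at least 1 control summit.

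**Figure D4:**
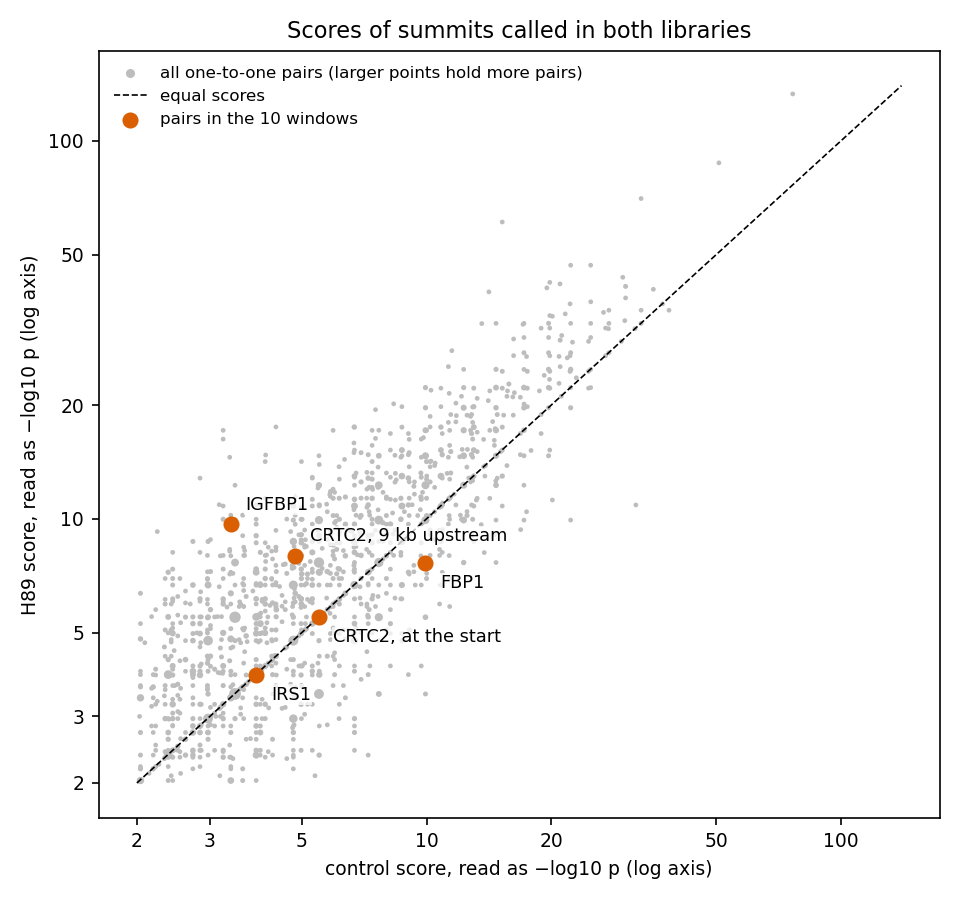
Scores of summits called in both libraries, control on the horizontal and H89 on the vertical axis, both on log axes. Grey points are all pairs, larger where more pairs share a position; orange points are the 5 pairs in the locus windows, and the dashed line marks equal scores. IGFBP1 (3.37 and 9.67) lies well above the line, FBP1 (9.94 and 7.66) below it, and IRS1 and the summit at the CRTC2 start on it.

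Set side by side, the pairs moved in no common direction. Of the 5 pairs, 2 scored higher with H89 by more than 0.1 (IGFBP1 and the upstream CRTC2 summit), 1 scored lower (FBP1) and 2 were equal (IRS1 and the CRTC2 start). Over all pairs, 50.2% were higher, 14.5% lower and 35.3% equal. With 5 pairs, the share of 40.0% higher has an exact 95% interval from 5.27% to 85.3%, which takes in the share of all pairs. The median difference was -0.01 in the windows and 0.20 over all pairs.

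Most H89 summits in the windows had no control partner. Of the 15, 5 had one (33.3%, exact interval 11.8% to 61.6%), whereas 70.9% of all H89 summits did. The 10 without one lay at FOXO1 (5), CRTC2 (3), INSR (1) and IGFBP1 (1), so summits of 2 loci make up most of them and are not independent of each other. Their scores ran from 2.96 to 5.49. Of the 6 control summits, 5 had a partner (83.3%, interval 35.9% to 99.6%), against 86.4% of all. A score of 5 or more was reached by 2 of the 6 control and 6 of the 15 H89 summits, while 41.9% of all control and 46.2% of all H89 summits reached it. Absence from a list means only that no call passed its threshold, and a depth difference between the 2 libraries and an effect of H89 cannot be told apart.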

How the data were processed

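CUT&Tag libraries of HepG2 cells (control, H89 and IgG, 1 each) were mapped by the authors with Bowtie 0.12.2 to hg19, per the submitters' processing notes. For the peak caller, its background and its threshold, the sources used here give nothing. The authors deposited 2 lists of single-base summits, assigned to libraries by their peak names, with a score per summit that is read from its values as a −log10 p-value. Read totals are unknown, so no depth limit can be given.

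Windows were those of the rule for the 10 genes. Members and motifs were chosen with earlier results of these data known. Summits of the 2 libraries were paired when mutually nearest within 1000 bp, and score differences up to 0.1 were treated as equal. 2 Poisson means per list were fitted to its commonest scores, and a score within 0.001 of a step was assigned to it. Every summit in a window is named with its position and score. Tiles cover the primary chromosomes (lengths from GenomeInfoDb 1.38.1, bands from circlize 0.4.16). Functions were tested on simulated data. No genome or gene table of hg19 was at hand, so exons, introns and other pathway genes were not analysed here. Strands come from the RefSeq promoter table for 7 genes and from textbook knowledge for 3. Python 3.11.15 was used with numpy 2.4.6, pandas 2.3.3 and scipy 1.17.1.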

Additional observations from a re-analysis of the deposited data

How the results depend on the processing

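The H89 to control ratio of summits over the 10 windows stayed above 1 under all alternatives tried, from 1.67 without the FOXO1 and CRTC2 windows to 3 for genes without their flanks (3 and 9 summits) or for scores of 5 or more (2 and 6 summits). It was 2.12 with 20 kb on each side. Merging summits within 500 bp left 6 and 15 summits and the ratio of 2.50. No summits of the same library lay that close in the windows, so this setting could not change the ratio. The intervals of all these ratios include 1. Leaving out windows was chosen after seeing the data. The number of loci with a control summit fell from 5 to 3 without the flanks and to 2 at scores of 5 or more, because the IRS1 and IGFBP1 summits lie upstream of the gene and most control scores are low. With pairing within 2000 bp the FOXO1 summits also form a pair, and 100% of the control summits are then shared. No paired analysis was possible because neither condition has a replicate. The lack of replicates, the unknown depth and starts known only to about 1 kb limit all values.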
